A study of Homo sapiens with 8 samples.

Results

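A set of 10 genes was examined in an Ewing sarcoma cell line in which FEZF1 was silenced: the TSC22D family (TSC22D1, TSC22D2, TSC22D3 and TSC22D4), the glucocorticoid receptor gene NR3C1, and FKBP5, PER1, KLF9, SGK1 and ZBTB16, genes known to respond to glucocorticoids or FOXO factors. The 10 genes were selected on measured values as well as on function, because the change of some of them in the comparison with doxycycline was already known. Their levels and differences in that comparison are therefore given as a description. How many of them passed the threshold used for all genes is printed only beside the share of all genes that passed, and nothing is read from it. All 10 were among the 15993 genes tested, out of 34792 genes for which reads were summed.

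Cortisol and its synthetic relatives act through the glucocorticoid receptor, which is held in the cytoplasm by HSP90 and its cochaperones and moves to the nucleus once hormone is bound. There it switches on genes such as TSC22D3, which encodes GILZ, the glucocorticoid-induced leucine zipper protein, and FKBP5, whose protein returns to the receptor complex and lowers its affinity for hormone. TSC22D3 and several genes of the group are also known targets of FOXO factors, which enter the nucleus when signalling through PI3K and AKT is low. The TSC22D proteins share a leucine zipper and a short conserved motif called the TSC box, and the longer members bind the NRBP pseudokinases and the WNK kinases that respond to cell volume.

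The cells were A673/TR/shFEZF1, a line derived from A673, an Ewing sarcoma cell line with the EWSR1-FLI1 fusion. They carry the tetracycline repressor and, under its control, an shRNA directed against FEZF1, a zinc finger transcription factor of the developing nervous system. RNA came from a polyclonal population and from clones 3, 5 and 6, each cultured untreated and with 1 µg/mL doxycycline for 72 h, giving 8 libraries, 4 per group and 1 for each origin and condition. All cultures, the untreated ones included, carried the repressor and the shRNA construct and grew in DMEM with 10% FBS and antibiotics, and no added glucocorticoid is named. The A673/TR parent was 1 clone, and the clones were kept for their strong loss of FEZF1 protein. Cells given doxycycline without the shRNA were not analysed here, so effects of the drug and of the shRNA cannot be told apart.

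The libraries held 26719886 to 42422421 assigned reads. FEZF1, the target of the shRNA, fell from 87.1 ± 17.6 to 50.2 ± 12.4 CPM, counts scaled to library size (mean ± SD, n = 4 per group), a log2 fold change of -0.81 ± 0.073 (SE) with an adjusted p of 0.00594 (edgeR quasi-likelihood test), and it was lower in 4 of 4 origins. Of 10 markers of blood, endothelial, epithelial and stromal cells, 7 stayed under 1 CPM in every library, and the summed level of the 10 ranged from 4.57 to 19.99 CPM untreated and from 5.05 to 19.6 CPM with doxycycline. The highest single marker was DCN, at up to 17.2 CPM, and CD3E was at 0 in every library. None of the 5 markers that were tested passed in edgeR or in DESeq2 with the block, and 3 had an unadjusted p under 0.05. Of 8 genes known to be high in Ewing sarcoma, NR0B1 and NKX2-2 rose, FEZF1 fell and 5 did not pass (adjusted p under 0.05). This is a share of 37.5% beside the 7.63% of all genes that passed. It counts FEZF1, the target of the shRNA, so nothing is read from it. In edgeR without the replicate block 0 of the 8 passed. CD99, the surface marker of the tumour, averaged 1524 CPM untreated and 1593 CPM with doxycycline.

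The promoters of the 2 genes with the greatest differences, TSC22D3 and SGK1, are shown, each upstream of the transcript that held most of the gene's reads. The bases come from RefSeq on GRCh38.p14, on the minus strand, 5′ to 3′, and they run from 250 bases before the transcript start to the first base that GENCODE places in an exon of the gene. Capitals mark matches, on either strand, to the FOXO site GTAAACA or the GC box GGGCGG.
TSC22D3 (chrX:107717136-107717312): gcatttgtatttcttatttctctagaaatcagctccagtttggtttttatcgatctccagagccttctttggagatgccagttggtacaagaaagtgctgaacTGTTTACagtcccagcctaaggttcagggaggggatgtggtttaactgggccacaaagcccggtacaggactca
SGK1 (chr6:134174869-134175116): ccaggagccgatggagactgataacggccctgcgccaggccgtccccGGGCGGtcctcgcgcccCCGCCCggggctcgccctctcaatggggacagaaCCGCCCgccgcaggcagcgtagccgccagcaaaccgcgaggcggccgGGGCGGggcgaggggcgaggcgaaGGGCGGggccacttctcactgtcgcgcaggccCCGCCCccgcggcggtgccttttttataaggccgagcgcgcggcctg

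Upstream of the TSC22D3 start at position 107717062, the FOXO match began at base -147, counting -1 as the base next to the start. GENCODE lets this transcript begin 73 bases earlier than RefSeq does, so those bases are left out above, and they hold 2 matches to the short cyclic AMP response motif TGACG, at -60 and -50. The SGK1 window held 6 GC boxes and no FOXO match. A FOXO match occurred in 2.98% of the 35116 human promoter windows of 250 bases searched in the same way, a TGACG match in 21.2% and a GC box in 42.6%.

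Windows were available for 8 of the 10 genes, all but TSC22D2 and ZBTB16, and these genes had 24 windows between them. None of the 24 held the full glucocorticoid response element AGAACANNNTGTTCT, which was present in 0.00285% of all windows. Its arm AGAACA alone was found in 1 of the 24, at -94 from a start of TSC22D1, against 12.4% of all windows. The E-box CACGTG, the element bound by the clock factors CLOCK and BMAL1, was present in 3 of the 24 and in 6.34% of all, and 1 of the 3 lay at -173 from the PER1 start. The other FOXO match belonged to a start of NR3C1. These matches describe letters in short windows, and no binding was measured.

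TSC22D3 encodes GILZ, which restrains NF-κB and AP-1. Its level in the untreated cultures was 12.7 CPM in the polyclonal population, 12.5 in clone 3, 11.6 in clone 5 and 16.2 in clone 6. With doxycycline it was 28.3 CPM in the polyclonal population, 25.6 in clone 3, 42.5 in clone 5 and 32.3 in clone 6. Every doxycycline culture was above every untreated one, and clone 5 moved from the lowest untreated level to the highest with doxycycline. The ratio of doxycycline to untreated was 2.22 in the polyclonal population, 2.06 in clone 3, 3.66 in clone 5 and 1.99 in clone 6. The fitted log2 fold change was 1.26 ± 0.147 (SE), the 86th highest of the 15993 genes tested. Leaving out clone 5 gave 1.05. In bulk RNA, more cells that express a gene and more RNA per cell cannot be told apart.

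SGK1 encodes a kinase of the AGC family, related to AKT, that acts on ion channels and on FOXO factors. Untreated cultures held 70.5 CPM in the polyclonal population, 84.7 in clone 3, 57.9 in clone 5 and 81.3 in clone 6. Doxycycline cultures held 112 CPM in the polyclonal population, 173 in clone 3, 224 in clone 5 and 132 in clone 6. As for TSC22D3, the groups did not overlap, and clone 5 was lowest untreated and highest with doxycycline. The within-origin ratios were 1.60, 2.04, 3.87 and 1.62 in the same order of origins. The fitted log2 fold change was 1.08 ± 0.195 (SE), rank 138 of all genes, and 0.78 without clone 5.

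NR3C1, the receptor gene itself, differed in the other direction. Untreated levels were 15.7 CPM in the polyclonal population, 16.9 in clone 3, 11.3 in clone 5 and 22.8 in clone 6, and doxycycline levels were 12.8, 11.4, 9.39 and 14.0 CPM in that order. Each origin was lower with doxycycline, with ratios from 0.613 in clone 6 to 0.832 in clone 5, but the groups overlapped, because untreated clone 5 lay below treated clones 3 and 6 and the treated polyclonal population. The fitted log2 fold change was -0.46 ± 0.107 (SE).

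FKBP5, the cochaperone gene that is among the most widely used readouts of receptor activity, was not higher with doxycycline in any origin. It measured 51.7, 57.8, 49.0 and 58.7 CPM in the untreated polyclonal population and clones 3, 5 and 6, and 51.4, 47.8, 34.8 and 45.9 CPM with doxycycline. The polyclonal ratio of 0.994 was close to 1, and clone 5, the origin with the greatest ratio for TSC22D3 and SGK1, had the lowest for FKBP5, at 0.710. The fitted log2 fold change was -0.28 ± 0.085 (SE).

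**Figure D1:**
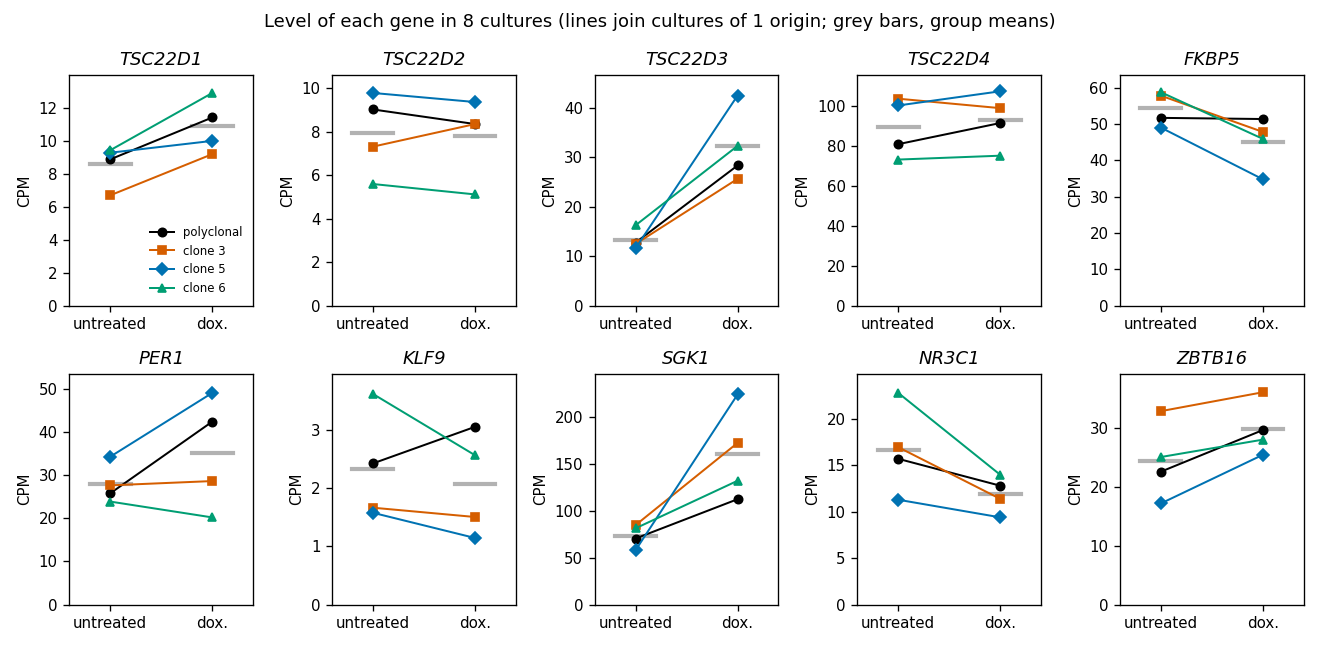
Level of each of the 10 genes (vertical axis, CPM from 0) in the untreated and doxycycline (dox.) cultures; each line joins the 2 cultures of 1 origin and grey bars are group means (n = 4). TSC22D3 and SGK1 are higher with doxycycline in all 4 origins with no overlap between groups, NR3C1 and FKBP5 are lower, and PER1, KLF9, TSC22D2 and TSC22D4 lines run in both directions.

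PER1, a repressor of the circadian clock that is also induced by glucocorticoids, went in different directions by origin. The untreated cultures measured 25.8, 27.7, 34.3 and 23.9 CPM (polyclonal, clones 3, 5 and 6) and the doxycycline cultures 42.5, 28.7, 49.1 and 20.2 CPM. The ratios were 1.65 in the polyclonal population and 1.43 in clone 5, 1.04 in clone 3 and 0.846 in clone 6. The fitted log2 fold change of 0.27 ± 0.150 (SE) became 0.11 without the polyclonal population and 0.43 without clone 6.

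KLF9, a zinc finger repressor and an early receptor target in many tissues, had low counts, with 34 to 99 reads per library. Its untreated levels were 2.42, 1.66, 1.58 and 3.62 CPM and its doxycycline levels 3.05, 1.5, 1.14 and 2.57 CPM in the same order. It was higher in the polyclonal population and lower in the 3 clones, and the log2 fold change was -0.18 ± 0.211 (SE), an error larger than the value.

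ZBTB16 encodes PLZF, a zinc finger factor that glucocorticoids and progestins induce strongly in several tissues. It measured 22.6, 32.9, 17.2 and 25.1 CPM untreated and 29.7, 36.1, 25.5 and 28.1 CPM with doxycycline, higher in 4 of 4 origins with overlapping groups. Its ratios ran from 1.10 in clone 3 to 1.48 in clone 5, and the log2 fold change was 0.31 ± 0.091 (SE).

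The other 3 members of the TSC22D family differed less with doxycycline than TSC22D3 did. TSC22D1, the first member to be found, as a gene induced by TGF-β, measured 8.87, 6.69, 9.27 and 9.42 CPM untreated and 11.4, 9.18, 9.99 and 12.9 CPM with doxycycline, higher in each origin but with overlapping groups. Its log2 fold change was 0.35 ± 0.112 (SE). TSC22D4, a long member known for its role in lipid and glucose metabolism, measured 81.0, 104, 100.4 and 73.3 CPM untreated and 91.6, 99.0, 107 and 75.2 CPM with doxycycline, a log2 fold change of 0.06 ± 0.060 (SE). TSC22D2, another long member, measured 9.03, 7.32, 9.79 and 5.60 CPM untreated and 8.36, 8.35, 9.37 and 5.12 CPM with doxycycline, a log2 fold change of -0.03 ± 0.119 (SE). For these last 2 genes the origins were ordered alike in both conditions, or nearly so, and the spread between origins exceeded the difference between conditions. The sums for TSC22D1 and TSC22D2 hold only part of their reads, since they reach 36.9% and 23.5% of the mean normalised count in the authors' own gene table, against 83.9% for PER1 and 92.7% to 99.2% for the other 7 genes.

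By edgeR with the origin as a block and an adjusted p under 0.05, 3 of the 10 genes passed, SGK1 and TSC22D3 as higher and NR3C1 as lower, where 7.63% of all genes passed. Among all genes, 3.73% passed as higher and 3.91% as lower. The groups did not overlap for 2 of the 10 genes, and for 4.96% of all genes. The direction was the same in all 4 origins for 6 of the 10 (TSC22D1, TSC22D3, SGK1 and ZBTB16 higher, FKBP5 and NR3C1 lower) and for 33.3% of all genes. Since the genes were selected on this comparison, these shares carry no information on whether the group as a whole responded. Without the replicate block for origin, 0 of the 10 genes and 1 gene in all passed. With DESeq2 and the block 4 of the 10 and 1920 genes in all passed. The gene added there was FKBP5, as lower (adjusted p = 0.0306, DESeq2). Only TSC22D3 passed whichever origin was left out and with curated transcripts alone. SGK1 did not pass without clone 3 (log2 fold change 1.10), without clone 6 (1.21) or with curated transcripts (1.08). NR3C1 did not pass in any of these 5 fits, with log2 fold changes from -0.54 to -0.38.

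**Figure D2:**
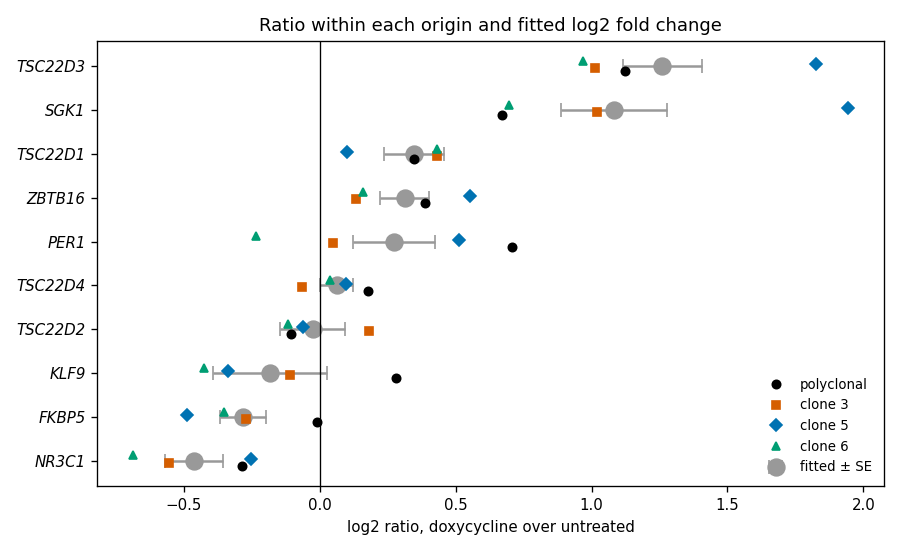
Log2 ratio of doxycycline to untreated (horizontal axis) for each gene in each origin (coloured symbols) and the fitted log2 fold change with its SE (grey); a pseudocount of 0.5 CPM was added to both levels for the coloured symbols. TSC22D3 and SGK1 lie farthest to the right with clone 5 beyond the other origins, and NR3C1 lies farthest to the left, at -0.46.

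To compare levels between genes, TPM values, which correct for depth and transcript length, were summed per gene. In the untreated cultures TSC22D4 was highest at 73.7 ± 11.7 TPM (SD, n = 4), followed by SGK1 at 54.0 ± 8.82 TPM. The ranges of these 2 genes overlapped. FKBP5 followed at 24.1 ± 2.02 TPM, TSC22D3 at 12.1 ± 1.80 TPM and PER1 at 10.0 ± 1.54 TPM, of which the last 2 overlapped. ZBTB16 at 4.90 TPM, NR3C1 at 4.34 TPM and TSC22D1 at 4.22 TPM overlapped from one to the next, as did TSC22D2 at 1.46 TPM and KLF9 at 0.745 TPM. With doxycycline, SGK1 at 118 ± 36.1 TPM and TSC22D3 at 29.4 ± 6.15 TPM had higher means than TSC22D4 at 77.7 TPM and FKBP5 at 20.1 TPM respectively, so that both changed places with the gene above them. The ranges of SGK1 and TSC22D4 overlapped there, and those of TSC22D3 and FKBP5 did not. These are levels and not differences, and those of TSC22D1 and TSC22D2 are too low for the reason given above.

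The reads of TSC22D3 and SGK1 were then divided by transcript, as CPM of assigned reads. The transcript NM_004089.4, whose promoter is shown above, held 90.8% of TSC22D3 reads. It measured 11.1, 9.91, 10.3 and 11.1 in the untreated polyclonal population and clones 3, 5 and 6, and 23.9, 21.2, 36.0 and 26.2 with doxycycline. Means were 10.6 ± 0.607 and 26.8 ± 6.45 (SD, n = 4), with no overlap. The second transcript, NM_001015881.2, held 8.75% of the reads and averaged 1.25 ± 1.35 untreated and 2.24 ± 0.193 with doxycycline, higher in 3 of 4 origins. The higher untreated total in clone 6 lay in this second transcript, at 3.22 against 0.309 to 1.00 in the other origins, while the main transcript was as high there as in the polyclonal population.

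For SGK1, NM_005627.4 held 83.0% of reads and averaged 56.2 ± 6.53 untreated and 117 ± 33.3 with doxycycline. NM_001143677.2, with 16.3% of reads, averaged 9.33 ± 3.59 untreated and 27.7 ± 11.2 with doxycycline, reaching 43.6 in clone 5. Both were higher in 4 of 4 origins. The mean share of NM_001143677.2 in the gene's reads was 13.8% ± 3.89 untreated and 18.8% ± 1.95 with doxycycline. This share was higher in 3 of 4 origins. It went from 9.76% to 21.5% in clone 5 and was 19.0% and 18.8% in clone 6. Salmon divides reads shared between transcripts by a model, and the error of that division was not measured.

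The 2 main NR3C1 transcripts were NM_001018076.2, with 73.4% of reads, and NM_000176.3, with 15.6%. NM_000176.3 averaged 2.94 ± 1.04 CPM untreated and 1.21 ± 0.582 with doxycycline and was lower in 4 of 4 origins. NM_001018076.2 averaged 10.9 ± 4.25 and 8.07 ± 0.861 and was higher in 1 origin, clone 5. Other NR3C1 transcripts took reads in only some cultures. NM_001364181.2 held 21.95% in untreated clone 5 alone. NM_001364184.2 held 17.18% in the polyclonal population and 24.98% in clone 6, both with doxycycline, and none elsewhere. The error of this division was not measured, so no difference between the 2 main transcripts is read from these values. FKBP5 reads came almost wholly from NM_004117.3 (97.6%), which was lower in 4 of 4 origins. TSC22D4 was 80.5% NM_030935.5 and 12.7% the noncoding NR_130119.2. ZBTB16 was 82.9% NM_006006.6 and TSC22D1 74.97% NM_006022.4. TSC22D2 was 81.8% NM_001303264.2 and 10.9% NM_014779.4. For TSC22D1 and TSC22D2 these are shares of the matched reads, which are only part of the gene's reads. PER1 and KLF9 each had 1 matched transcript.

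Whether the 10 genes differed between the 4 origins was not itself used to select them. It was examined with the F test of the origin terms in the same edgeR fit. That test uses the same residual error as the comparison with doxycycline, on which some of the genes were selected. It is therefore not fully independent of the choice, and nothing is read from how many of the 10 passed. Of the 10 genes, 6 differed between origins at an adjusted p under 0.05, beside 39.4% of all genes tested. KLF9 had the widest span, from 1.36 CPM in clone 5 to 3.09 CPM in clone 6 (mean of the untreated and the doxycycline culture), 2.27-fold, with an adjusted p of 0.0334. NR3C1 had the same extremes, from 10.3 CPM in clone 5 to 18.4 CPM in clone 6, 1.78-fold, with an adjusted p of 0.0244. In these means the receptor gene and KLF9 were both lowest in clone 5 and highest in clone 6. With doxycycline alone, KLF9 was highest in the polyclonal population, at 3.05 CPM against 2.57 CPM in clone 6.

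PER1 had the opposite order, with 41.7 CPM in clone 5 and 22.1 CPM in clone 6, 1.89-fold, and an adjusted p of 0.0483. TSC22D2 and TSC22D4 were likewise highest in clone 5 and lowest in clone 6. TSC22D2 measured 9.58 and 5.36 CPM there, 1.79-fold, with an adjusted p of 0.0267, on a sum that holds only part of its reads. TSC22D4 measured 104 and 74.2 CPM, 1.4-fold, with an adjusted p of 0.0111. For TSC22D4, clone 3 lay close to clone 5, at a mean of 101.4 CPM. Untreated clone 3 was above untreated clone 5, at 103.8 against 100.4 CPM. ZBTB16 was highest in clone 3, at 34.5 CPM, and lowest in clone 5, at 21.3 CPM, 1.62-fold, with an adjusted p of 0.0191.

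The other 4 genes did not pass. The adjusted p was 0.114 for FKBP5, 0.130 for TSC22D1, 0.323 for TSC22D3 and 0.466 for SGK1. TSC22D3 and SGK1 had the greatest differences with doxycycline, and the spread of that difference over origins is the error against which their origins were tested. Every origin was represented by 1 untreated and 1 doxycycline culture, so the cells of an origin and the handling of its cultures cannot be told apart.

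**Figure D3:**
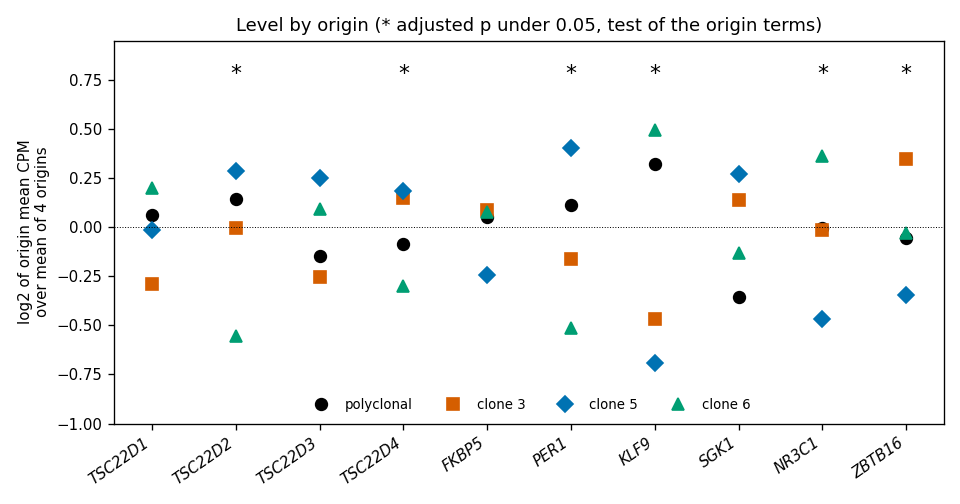
Log2 of each origin's mean CPM (2 cultures) over the mean of the 4 origins (vertical axis) for the 10 genes, with an asterisk where the F test of the origin terms gave an adjusted p under 0.05. Clone 5 and clone 6 form the extremes for TSC22D2, TSC22D4, PER1, KLF9 and NR3C1, in opposite orders.

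These calls between origins changed with the origins included and with the processing. With curated transcripts alone, the adjusted p was 0.0675 for TSC22D2, 0.0862 for PER1, 0.0626 for KLF9 and 0.0515 for NR3C1, and PER1 was at 0.0512 with DESeq2 size factors. Without clone 6, the adjusted p was 0.435 for TSC22D2, 0.114 for TSC22D4, 0.117 for PER1, 0.0987 for KLF9 and 0.103 for NR3C1, while ZBTB16 stayed at 0.0236. Without clone 5 it was 0.0642 for TSC22D2, 0.138 for PER1, 0.0958 for KLF9, 0.150 for NR3C1 and 0.0555 for ZBTB16, while TSC22D4 stayed at 0.0355. ZBTB16 also lost its call without clone 3, at 0.124.

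The genes whose level followed that of TSC22D3 most closely over the 8 libraries were sought among 9444 genes with a mean of at least 10 CPM, by Pearson's correlation of log2 CPM. Among the closest were the kinase gene DYRK1B (r = 0.990), RUBCNL, which acts in autophagy (r = 0.972), METTL8, an RNA methyltransferase gene (r = 0.972), and PPP2R5D, a regulatory subunit of phosphatase 2A (r = 0.968). These 4 genes were higher in clone 5 with doxycycline than in any other library, as TSC22D3 was. Their differences were smaller than that of TSC22D3: DYRK1B, for example, measured 12.1 ± 0.37 CPM untreated and 18.3 ± 2.44 CPM with doxycycline. SGK1 ranked 39th, with r = 0.917. The points share the same 8 libraries and the same treatment, so the values are a description.

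Other glucocorticoid-responsive genes were examined as a list of 33, of which 28 were tested. This list and those that follow were set with earlier results of these data known. The shares of them that passed are therefore a description, and nothing is read from them. With doxycycline 4 rose, 1 fell and 23 did not pass, so that 17.9% of those tested passed, beside the 7.63% of all genes. The median log2 fold change was 0.11, against 0.00 for all genes tested. DDIT4, whose protein REDD1 inhibits mTORC1, rose from 16.5 ± 1.87 to 32.4 ± 7.96 CPM, a log2 fold change of 0.95 ± 0.098 (SE) with an adjusted p of 0.00611, and the groups did not overlap. GPX3, a secreted glutathione peroxidase, rose from 0.821 ± 0.724 to 2.06 ± 1.42 CPM (log2 fold change 1.42 ± 0.237, adjusted p = 0.018), at levels near the lower limit of measurement. MAOA, which degrades monoamines, rose by a log2 fold change of 0.58 ± 0.120 (adjusted p = 0.0324), and the fourth gene to rise was KLF6. TMT1A, a thiol methyltransferase, fell, with a log2 fold change of -0.47 ± 0.074 (adjusted p = 0.0152).

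Several of the best known receptor targets in the list did not pass. DUSP1, a phosphatase that shuts off MAP kinases, measured 16.4 and 21.3 CPM (means, adjusted p = 0.0924). NFKBIA measured 48.0 and 49.4 CPM (adjusted p = 0.805), ERRFI1 68.8 and 70.8 CPM (adjusted p = 0.908), and TIPARP 192 and 161 CPM (adjusted p = 0.062). These 4 genes were picked for their standing as targets after their values were seen. DUSP1 had a log2 fold change of 0.36 and TIPARP one of -0.25. Of the 28 genes tested in the list, 21 had a positive log2 fold change and 7 a negative one, most of them without passing. Of the 5 listed genes that passed, only DDIT4 stayed past the threshold whichever origin was left out. Without the replicate block 0 genes of the list passed in edgeR, and without clone 5 1 passed.

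FOXO factors and targets made a list of 28, with 24 tested. With doxycycline 4 rose and 3 fell, a share of 29.2% of those tested beside the 7.63% of all genes, and 17 did not pass. The median log2 fold change was 0.11. KLF2, a zinc finger factor of quiescent cells, rose from 3.65 ± 1.45 to 6.60 ± 1.92 CPM (log2 fold change 0.90 ± 0.177, adjusted p = 0.0268). GADD45A, which acts in the response to DNA damage, rose from 33.4 ± 5.42 to 45.7 ± 8.76 CPM (log2 fold change 0.44 ± 0.065, adjusted p = 0.0124), and BTG1 and CAT also rose. In the other direction, TXNIP, which binds thioredoxin, fell from 50.1 ± 25.9 to 35.9 ± 22.8 CPM (log2 fold change -0.56 ± 0.114, adjusted p = 0.0298).

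The genes of the cyclin-dependent kinase inhibitors CDKN1A (p21) and CDKN1B (p27) also fell. CDKN1A measured 71.1 ± 15.1 CPM untreated and 53.2 ± 10.1 CPM with doxycycline (log2 fold change -0.41 ± 0.069, adjusted p = 0.018). The FOXO genes FOXO1, FOXO3, FOXO4 and FOXO6 did not pass, with log2 fold changes of 0.14, -0.02, 0.47 and -0.41. The FOXO3 sum is partial, at 37.5% of the authors' mean normalised count. No gene of this list passed without clone 5, without clone 6 or, in edgeR, without the replicate block.

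The SGK1 axis held 13 genes, with 11 tested: the paralogues SGK2 and SGK3, kinases upstream of SGK1, and its substrates and the channel they act on. Of those tested 2 rose, 18.2% beside the 7.63% of all genes. SCNN1G, the gamma subunit of the epithelial sodium channel whose surface level SGK1 raises, rose from 18.3 ± 11.2 to 59.0 ± 57.9 CPM (log2 fold change 1.45 ± 0.156, adjusted p = 0.00635). It reached 145 CPM in clone 5 with doxycycline and 21.7 to 41.6 CPM in the other origins, and without clone 5 the log2 fold change was 1.2, with an adjusted p of 0.0207. The other listed subunit genes of the channel were far lower. SCNN1A was not tested and had a mean normalised count of 0.11, and SCNN1B had 30.7, against 1145 for SCNN1G. NEDD4L, the ubiquitin ligase that removes the channel and is inhibited by SGK1, rose from 17.4 ± 1.87 to 22.9 ± 2.27 CPM (log2 fold change 0.40 ± 0.078, adjusted p = 0.0268) with no overlap of the groups. It did not pass when any origin was left out. The genes of PDPK1 and of the mTORC2 subunits MTOR, RICTOR, MAPKAP1 and MLST8, which activate SGK1, did not pass, with log2 fold changes from -0.20 to 0.12. The median of the list was 0.12.

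Receptor chaperones and coregulators made a list of 20, with 19 tested. None passed in edgeR, where 7.63% of all genes did, and 3 had an unadjusted p under 0.05. In DESeq2 with the block 3 passed, where 1920 genes in all did. The median log2 fold change was -0.03. The sums of NRIP1, NCOA1, NCOR1 and FKBP4 were partial, at 23.4%, 39.2%, 56.7% and 64.0% of the authors' mean normalised count. The 2 most abundant, HSPA8 at 3245 ± 324 CPM untreated and 3393 ± 626 CPM with doxycycline and HSP90AB1 at 2153 ± 258 and 2146 ± 288 CPM, had log2 fold changes of 0.05 ± 0.066 and -0.01 ± 0.046 (adjusted p of 0.690 and 0.947). NR3C2, the mineralocorticoid receptor, which also binds glucocorticoids, measured 4.06 and 3.40 CPM (adjusted p = 0.451).

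A list of 8 genes held the NRBP and WNK partners of the TSC22D proteins together with STK39 and OXSR1, and all 8 were tested. None passed in edgeR, where 7.63% of all genes did, and 2 had an unadjusted p under 0.05. In DESeq2 with the block 1 passed, where 1920 genes in all did. The median log2 fold change was 0.11. The sums of WNK2, WNK3 and STK39 were partial, at 52.2%, 43.8% and 47.1% of the authors' mean normalised count. NRBP1, the pseudokinase that binds the long TSC22D proteins, measured 142 ± 14.1 CPM untreated and 166 ± 10.3 CPM with doxycycline and was higher in 4 of 4 origins (log2 fold change 0.23 ± 0.058, adjusted p = 0.0541). WNK1 measured 309 ± 27.5 and 299 ± 52.9 CPM (log2 fold change -0.06 ± 0.068, adjusted p = 0.650). Its sign turned to 0.02 without clone 6 and to 0.36 with curated transcripts alone.

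Beside PER1, 17 clock genes were tested and 1 passed, 5.88% beside the 7.63% of all genes. CRY2, a repressor that acts with the PER proteins and also binds the glucocorticoid receptor, rose from 46.7 ± 8.21 to 72.8 ± 15.8 CPM (log2 fold change 0.63 ± 0.063, adjusted p = 0.00594), higher in 4 of 4 origins with no overlap, and it stayed past the threshold whichever origin was left out. Its paralogue CRY1 measured 41.4 ± 4.81 and 44.9 ± 5.21 CPM (log2 fold change 0.12 ± 0.065, adjusted p = 0.311). CLOCK, the activator that the CRY and PER proteins oppose, measured 38.1 ± 4.23 and 30.4 ± 3.0 CPM (log2 fold change -0.32 ± 0.084, adjusted p = 0.0581), lower in 4 of 4 origins. The remaining genes did not pass, among them PER2 with a log2 fold change of -0.09. The sums of PER3, DBP and RORA were partial, at 43.3%, 34.9% and 70.8% of the authors' mean normalised count. The median of the list was 0.12.

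**Figure D4:**
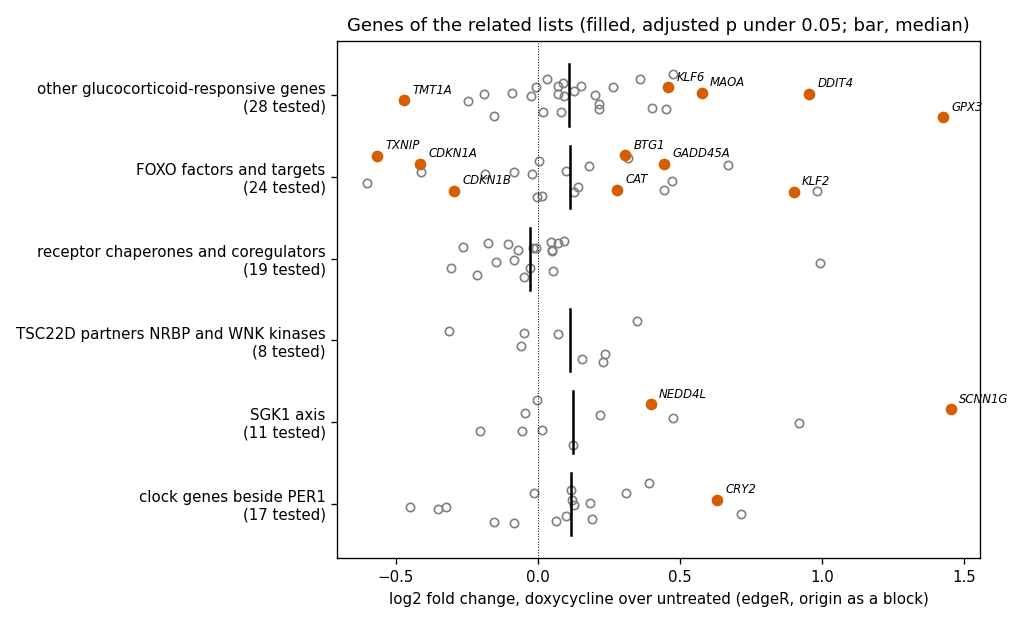
Log2 fold change of doxycycline over untreated (horizontal axis) for the tested genes of the 6 lists; filled and named circles had an adjusted p under 0.05 in edgeR with the origin as a block, and vertical bars are list medians. SCNN1G and GPX3 lie farthest to the right, at 1.45 and 1.42, and the list medians lie between -0.03 and 0.12.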

How the data were processed

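RNA (TruSeq stranded mRNA, paired-end) from 8 cultures was quantified by the authors with Salmon on RefSeq transcripts of GRCh38; whether Salmon used strand is not stated. The authors deposited estimated counts and TPM per transcript for each library, and a series table whose mean signal (the mean normalised count per gene) was used here as a check of completeness. Its other columns hold the authors' own comparison of the groups (fold change and p-values) and were not used. The authors' processing notes name DESeq2 2.11.40.6.

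Estimated counts of the 115325 of 158867 transcripts (72.6%) that a RefSeq gene table matched to a symbol were summed per gene and rounded; they held 89.9% to 91.1% of reads in each library. Of transcripts with a predicted model 50.3% matched, and some sums, TSC22D1 and TSC22D2 among them, are partial. Doxycycline was compared with untreated cultures by edgeR 4.0.16 (R 4.3.3): quasi-likelihood test, filterByExpr, TMM, the origin as a block, and Benjamini-Hochberg adjustment over all genes tested. CPM are scaled by TMM. The same fit gave the test of origin. The methods state no block; it was kept because both cultures of an origin come from the same cells, and the deviations of same-origin cultures from their group means correlated at 0.406 to 0.590 over genes, against -0.395 to 0.179 for other pairs. Each group holds 4 cultures, 1 per origin, so p-values measure the spread of the difference between origins.

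The 10 genes and all lists were chosen with earlier results of these data known. Genes named from a list are up to 4 that passed with the largest absolute log2 fold change and, where fewer than 2 passed, the 2 of highest mean CPM; other genes are named as examples chosen after their values were seen. Alternatives were no replicate block, DESeq2 1.42.0 with and without the block, DESeq2 size factors, no filter, 10 counts in every library, a length offset, curated transcripts alone, and leaving out each origin. Simulated counts served as a check of each fit. The 10 genes had from 34 to 6755 reads per library. A result on 1 gene among those most like TSC22D3 is not reported here.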

Additional observations from a re-analysis of the deposited data

Results flagged for a closer look

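In 68 groups of 4 cultures (the library totals and the 33 genes named by the rule given above, each untreated and with doxycycline), 4 held 1 culture far from the other 3 by Dixon's criterion, where chance gives about 3.4. All 4 were doxycycline groups, and none belonged to the 10 genes. GPX3 was at 4.19 CPM in clone 3 against 1.26 to 1.41 CPM in the other origins, and its log2 fold change was 1.55 without clone 3 (adjusted p = 0.0511, edgeR). CDKN1A was at 68.3 CPM in clone 3 against 48.1 to 48.4 CPM, with a log2 fold change of -0.41 without clone 3 (adjusted p = 0.0568, edgeR). WNK1 was at 220.0 CPM in clone 6 against 322 to 328 CPM. SCNN1G was at 145 CPM in clone 5 against 21.7 to 41.6 CPM.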

How the results depend on the processing

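The paired comparison depended on the replicate block for origin: 1 gene passed without it, and 1920 with DESeq2 and the block, 232 with DESeq2 and no block, 493 with curated transcripts alone, and 175 (without clone 5) to 699 (without the polyclonal population) with 1 origin left out, against 1221. Glucocorticoid-responsive genes that passed numbered 0 without the block, 2 with DESeq2 and no block, 3 with curated transcripts and 1 to 4 with 1 origin left out. FOXO factors and targets numbered 0, 0, 3 and 0 to 3 under the same settings. The SGK1 axis numbered 0, 0 and, with 1 origin left out, 1. Clock genes numbered 0 without the block in edgeR and in DESeq2, 2 with DESeq2 and the block, 2 with no filter and 3 at 10 counts in every library. Receptor chaperones and coregulators numbered 3 with DESeq2 and the block, and 1 with DESeq2 and no block, with DESeq2 size factors, with no filter and at 10 counts. The list of NRBP and WNK partners with STK39 and OXSR1 numbered 1 with DESeq2 and the block and 1 at 10 counts. Between origins, 4054 genes passed with curated transcripts and 2970 (without clone 6) to 5300.0 (without clone 3) with 1 origin left out, and of the 10 genes 2 and 1 to 6 did. The causes were not tested. Leaving out an origin removes libraries and that origin together, so the effects of the 2 cannot be told apart.

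Direction was kept in all 12 alternatives by 9 of the 10 genes, and by TSC22D2 in 11. The log2 fold change ranged from 1.05 to 1.35 for TSC22D3, from 0.78 to 1.22 for SGK1 and from -0.54 to -0.38 for NR3C1. The sign turned for WNK1 with curated transcripts (0.362). With 1 origin left out it ranged from -0.122 (clone 5) to 0.017 (clone 6) for WNK1, from -0.034 (clone 5) to 0.099 (clone 6) for HSPA8 and from -0.035 (clone 5) to 0.007 (clone 6) for HSP90AB1. KLF9 had only 34 to 99 reads per library, and GPX3 8 to 144.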
